A study of Mus musculus with 8 samples.

Results

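The tumor necrosis factor (TNF) superfamily genes were described here in pericytes and smooth muscle cells (SMCs) sorted from mouse skeletal muscle. They were chosen by symbol, as every gene listed as Tnf, Lta or Ltb or with a symbol that starts with Tnfrsf or Tnfsf and a digit. This gave 34 of the 37979 genes listed, with 33 symbols, since Tnfrsf22 was listed under 2 gene identifiers. Of the 34, 21 encode receptors and 13 encode ligands, and all 34 were tested among 27414 genes.

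Both groups, with 4 libraries each, were taken from the hindlimb of mice of the genotype Ai14+/-;SM22α-Cre+, of both sexes and aged 3 to 4 months (18 mice in the study). In these mice, Cre driven by the SM22α promoter labels SMCs with the red fluorescent protein tdTomato. After dead, CD31+ and CD45+ cells were gated out, as the study's methods have it (a legend of the study instead writes both populations as CD31+), PDGFRβ+tdTomato- cells were taken as pericytes and PDGFRβ+tdTomato+ cells as SMCs. Each library held about 60000 cells combined from several sorts, and a pericyte that expresses SM22α would fall in the SMC group.

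TNF ligands are mostly made as trimers on the cell surface, from where some are shed by proteases, and they cluster trimeric receptors on the same or another cell. Receptors with a death domain recruit adaptors that can lead to cell death, and most receptors without one bind TRAF proteins that activate NF-κB. In blood vessel walls the family is known for inflammatory activation by TNF, whereas many receptors and ligands, among them GITR, OX40, the BAFF receptor and lymphotoxin β, are best known from lymphocytes.

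The groups were compared on their marker genes first. Pdgfrb, the gene of the sorted surface protein, was at 3.21 to 17.6 FPKM in the pericyte libraries and at 15.6 to 91.5 FPKM in the SMC libraries (FPKM: fragments scaled to transcript length and to the mapped reads of the library). Tagln, which encodes SM22α, ranged from 165 to 551 FPKM in pericytes and from 499.7 to 1569 FPKM in SMCs, and these ranges overlapped. Of 10 pericyte markers, 0 passed limma at a q value below 0.05 in the direction of pericytes (also 0 at an unadjusted p below 0.05), and Rgs5 and Vtn passed in the direction of SMCs (6 of the 10 at an unadjusted p below 0.05). Of 7 fibroblast markers, 6 passed toward SMCs and 1 toward pericytes. The summed level of 8 T cell markers was 1645 to 2725 FPKM in pericyte libraries and 24.2 to 53.5 FPKM in SMC libraries, that of 6 B cell markers was 742 to 1945 against 9.05 to 28.8 FPKM, and that of 4 NK cell markers was 180 to 310 against 4.38 to 7.30 FPKM. Among them, 7 T cell, 6 B cell and 4 NK cell markers were higher in pericytes, although the gate was set to remove CD45+ cells. Ptprc, the CD45 gene, was at 80.6 to 230.3 FPKM in pericyte libraries and at 4.34 to 11.9 FPKM in SMC libraries. The summed level of 8 endothelial markers was 59.9 to 124 FPKM in pericytes and 267 to 931 FPKM in SMCs. The FPKM of pericyte replicate 2 summed to 1190435, whereas the other 7 libraries summed to 656405 to 782014. Without that library, 13 family members were higher in pericytes and 5 in SMCs. The reads behind a value are not known, and depth relative to the other libraries, read from low values, was 0.874 to 1.04 in pericytes and 0.978 to 1.08 in SMCs.

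The sequence next to the start of 4 genes is shown because 3 of them, Ltb, Tnf and Lta, lie side by side and had unequal levels, and because Tnfrsf9 was higher in pericytes whereas the gene of its ligand was higher in SMCs. Each line holds the 250 bases before a start site, 5′ to 3′ on the gene's strand, from RefSeq (GRCm38.p6), and capitals mark matches to the κB motif, the AP-1 motif TGANTCA or the TATA box TATAAA, searched on both strands. Tnfrsf9 has 2 listed start sites, and the second is shown because only it held a match, the window of the first holding none of these motifs.
Ltb, chr17:35194257-35194506, plus strand: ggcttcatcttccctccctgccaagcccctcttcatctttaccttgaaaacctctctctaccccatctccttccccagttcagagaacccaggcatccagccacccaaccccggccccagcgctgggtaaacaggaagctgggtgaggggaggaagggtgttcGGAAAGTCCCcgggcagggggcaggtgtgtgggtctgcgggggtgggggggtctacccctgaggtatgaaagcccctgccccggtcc
Tnf, chr17:35202008-35202257, minus strand: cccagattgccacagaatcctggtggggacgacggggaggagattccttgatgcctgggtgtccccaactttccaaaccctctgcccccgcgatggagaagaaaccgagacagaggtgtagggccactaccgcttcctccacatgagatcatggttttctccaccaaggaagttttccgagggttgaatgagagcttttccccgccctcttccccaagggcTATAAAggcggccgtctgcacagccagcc
Lta, chr17:35205352-35205601, minus strand: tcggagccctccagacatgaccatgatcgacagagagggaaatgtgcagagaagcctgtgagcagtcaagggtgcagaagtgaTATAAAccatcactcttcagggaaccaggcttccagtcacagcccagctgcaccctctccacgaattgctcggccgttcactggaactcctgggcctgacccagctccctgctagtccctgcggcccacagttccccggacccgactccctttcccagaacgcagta
Tnfrsf9, chr4:150927749-150927998, plus strand: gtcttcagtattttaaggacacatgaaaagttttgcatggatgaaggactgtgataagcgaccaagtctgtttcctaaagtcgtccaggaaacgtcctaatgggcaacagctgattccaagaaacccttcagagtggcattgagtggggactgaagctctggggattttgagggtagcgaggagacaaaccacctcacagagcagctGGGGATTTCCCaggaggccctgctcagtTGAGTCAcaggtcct
The Ltb window held 1 κB match, 87 bases before the start. The Tnfrsf9 window held 2 overlapping κB matches, 43 and 42 bases before the start, and an AP-1 match 15 bases before it. The Tnf and Lta windows held a TATAAA match each, 29 and 167 bases before the start. Of 32851 promoters of the same length, 3.90% held a κB match, 6.75% an AP-1 match and 12.4% a TATAAA match. Of the 33 family symbols, 27 had a promoter entry, some with more than 1 window. Of their 31 windows, 3 (of Ltb, Tnfrsf8 and Tnfrsf9) held a κB match. A match is a run of letters only, and no binding was measured.

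By limma at a q value below 0.05, the threshold of every call given here, 14 of the 34 genes had higher levels in pericytes and 6 in SMCs, and the other 14 passed in neither direction. Over all genes tested, 10.6% were called for pericytes and 11.2% for SMCs, 21.8% in all. These shares change with the abundance of the genes, and among 13349 genes at 1 FPKM or more in at least 4 libraries they were 22.1% and 22.8%, with 14 and 9 family members called under that filter. Of the 34 members, all but Tnfrsf8, Tnfrsf11a, Tnfrsf17, Tnfsf4, Tnfsf15 and Tnfsf18 passed it. The 14 were not the same genes, since Tnfsf4 did not pass the filter and Tnfrsf14 was gained. For SMCs, Tnfrsf21, Tnfsf13 and Tnfsf13b were gained. Without SMC replicate 2, 3 members were called for SMCs (Tnfrsf11b, Tnfrsf12a and Tnfsf10 were lost). With a log2 fold change above 2 as well, 11 genes (8 receptors and 3 ligands) were called for pericytes, against 3.24% of all genes, and 2 (1 receptor and 1 ligand) for SMCs, against 2.66% of all genes. The latter count was 0 without pericyte replicate 3 or SMC replicate 1, and 1 without pericyte replicate 4 or SMC replicate 2. In 14 genes all pericyte libraries exceeded all SMC libraries (12.1% of all genes), in 8 the order was the opposite (12.5% of all genes), and in 12 the groups overlapped. The median log2 fold change of pericytes over SMCs was 0.34 over the receptors and 0.13 over the ligands, against 0.02 over all genes. Because the samples are bulk, fewer cells of a type and less RNA per cell cannot be told apart in any of these differences. Over all genes, the 2917 calls for pericytes and 3060 for SMCs became 2117 and 3734 when libraries were rescaled to a common sum, and the family counts were then 12 and 6.

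**Figure D1:**
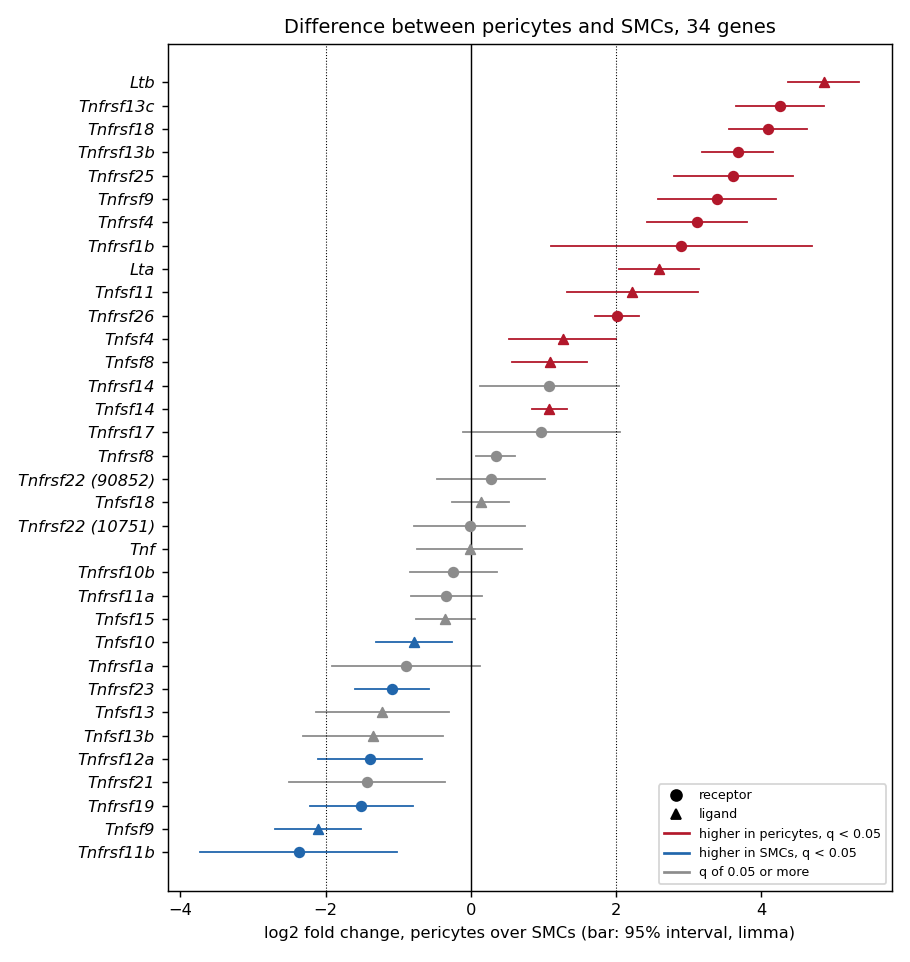
Log2 fold change of pericytes over SMCs (x axis, on the log2(FPKM + 1) scale) for the 34 TNF superfamily genes, with circles for receptors, triangles for ligands and bars for the 95% interval from limma; dotted lines mark a log2 fold change of 2 in each direction. Ltb is farthest to the right at 4.86 and Tnfrsf11b farthest to the left at -2.37, and 14 genes (grey) have a q value of 0.05 or more.

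Of the receptors, 10 had a mean of at least 10 FPKM in pericytes and 6 had one in SMCs, and the median receptor had a log2 level of 2.89 in pericytes and 1.96 in SMCs. In the comparison of groups, 8 of the 21 were higher in pericytes, 4 in SMCs, and 9 were not called.

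Several receptors of the family costimulate T cells. Tnfrsf18, Tnfrsf4, Tnfrsf9 and Tnfrsf25 were higher in pericytes, and Tnfrsf14 and Tnfrsf8, which also act on T cells, were not called (limma q = 0.112 and 0.0836), though Tnfrsf14 was with the filter at 1 FPKM (limma q = 0.0437) or with replicates 1 and 2 set apart from 3 and 4 by a covariate (limma q = 0.0385), and Tnfrsf8 was without pericyte replicate 1 (limma q = 0.0407). Tnfrsf18, the gene of GITR, which is abundant on regulatory T cells, had 78.1, 133, 165 and 132 FPKM in pericyte replicates 1 to 4 and 7.47, 5.92, 6.60 and 5.25 FPKM in SMC replicates 1 to 4. Pericyte replicate 1 was the lowest of its group and lay above all SMC libraries. The log2 fold change was 4.09 ± 0.23 (SE, limma q = 4.7e-05). Of its exon bases 27.2% overlap Gm16008 on the opposite strand. For Tnfrsf4, which encodes OX40, pericyte levels were 53.4, 78.6, 73.1 and 76.9 FPKM, and SMC levels were 11.9, 8.25, 3.97 and 6.49 FPKM. The groups did not overlap, and SMC replicate 1 was the highest of its group (log2 fold change 3.11 ± 0.29 (SE), limma q = 3.8e-04). Tnfrsf9, the gene of CD137, a receptor induced on activated T and NK cells, was at 25.7, 22.8, 61.6 and 49.8 FPKM in pericytes and at 2.37, 3.93, 2.52 and 1.88 FPKM in SMCs. Pericyte replicates 3 and 4 were higher than replicates 1 and 2, and all 4 lay above the SMC libraries (log2 fold change 3.39 ± 0.35 (SE), limma q = 5.9e-04). Levels of Tnfrsf25, which encodes the death domain receptor DR3 of T cells, were 18.1, 44.1, 19.9 and 18 FPKM in pericytes and 0.952, 2.13, 0.634 and 0.531 FPKM in SMCs. Replicate 2 was the highest library in both groups, and the groups were apart (log2 fold change 3.61 ± 0.35 (SE), limma q = 4.5e-04). Without pericyte replicate 2 the log2 fold change was 3.31.

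Beside these receptors, 4 of 4 regulatory T cell markers were higher in pericytes, with sums of 51.1 to 68.2 FPKM in pericyte libraries and 1.90 to 5.73 FPKM in SMC libraries. Foxp3, their defining gene, was at 0.944 to 5.95 FPKM in pericyte libraries and at 0.0805 to 0.319 FPKM in SMC libraries. The part of T cells in the result was not tested.

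Receptors of BAFF and APRIL, the ligands that keep B cells and plasma cells alive, followed. The BAFF receptor gene Tnfrsf13c had 45.8, 28.1, 26.8 and 25.2 FPKM in pericytes and 1.30, 0.789, 0.191 and 0.501 FPKM in SMCs. Replicate 1 was the highest library of both groups, and the pericyte mean of 31.5 ± 9.63 FPKM (SD, n = 4) compared with an SMC mean of 0.694 ± 0.469 FPKM. Its log2 fold change of 4.26 ± 0.26 (SE, limma q = 6.1e-05) was the largest among the 21 receptors. Tnfrsf13b, which encodes TACI, had 35.3, 35.6, 27.3 and 28.2 FPKM in pericytes and 2.30, 2.13, 1.06 and 0.928 FPKM in SMCs. Replicates 1 and 2 were above replicates 3 and 4 in both groups, and the groups did not overlap (log2 fold change 3.68 ± 0.21 (SE), limma q = 4.8e-05). The third receptor of these ligands, Tnfrsf17 or BCMA, a plasma cell receptor, had 0.149 FPKM in pericyte replicate 1 and 1.36 to 3.86 FPKM in the other pericyte libraries. SMC libraries held 0.147 to 0.821 FPKM of it, so that the groups overlapped through pericyte replicate 1 alone (log2 fold change 0.97 ± 0.46 (SE), limma q = 0.205, or 0.0286 without that library, and 0.0286 to 0.381 over the 17 alternatives in which it was tested). Of 6 B cell markers, 6 were likewise higher in pericytes, and the part of B cells in these values was not tested.

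Of the receptors of TNF itself, 1 was called and 1 was not. Tnfrsf1b encodes TNFR2, which lacks a death domain and is abundant on lymphocytes and endothelium, and was at 86.1, 33.4, 206 and 184 FPKM in pericytes and at 5.73, 6.20, 21.3 and 33.1 FPKM in SMCs. Pericyte replicate 2 and SMC replicate 4 were nearly level, the former being higher, so the groups were separate by a narrow margin. With a log2 fold change of 2.90 ± 0.76 (SE), the limma q value was 0.0332. This call was lost in 8 of 18 alternative settings (limma q = 8.5e-04 to 0.0944 over the 18), namely with all listed genes tested, with a common sum, and without pericyte replicates 1, 3 or 4 or SMC replicates 1, 2 or 3, where the log2 fold change was 2.55 to 3.13. Tnfrsf1a, the gene of the widely expressed death domain receptor TNFR1, had 34.9, 25.3, 48.5 and 58.6 FPKM in pericytes and 49.8, 43.3, 127 and 114 FPKM in SMCs. Replicates 3 and 4 were the higher ones in both groups, and the groups overlapped. The log2 fold change was -0.89 ± 0.43 (SE), with a 95% interval from -1.91 to 0.12 (limma q = 0.215). Each SMC library was above the pericyte library of the same number, and the gene was called in 2 of 18 alternatives, both of which take differences between replicates into account (limma q = 0.00812 to 0.434 over the 18).

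Tnfrsf26, a mouse receptor gene of unknown ligand in a cluster on chromosome 7, had the smallest standard error among the receptors higher in pericytes. It had 15.8, 14.8, 16.0 and 12.5 FPKM in pericytes and 2.28, 3.14, 2.62 and 3.67 FPKM in SMCs. The groups were apart (log2 fold change 2.01 ± 0.13 (SE), limma q = 8.1e-05). This is the gene just above the fold threshold in pericytes. Its neighbors differed from it. Tnfrsf23, which encodes a decoy receptor of TRAIL, had 0.462, 0.745, 1.42 and 0.769 FPKM in pericytes and 3.05, 4.19, 2.61 and 1.90 FPKM in SMCs. All SMC libraries were above all pericyte libraries (log2 fold change -1.08 ± 0.21 (SE), limma q = 0.0105). Of its 50-base stretches 21.5% also occur in Tnfrsf22, so reads may have been shared between these genes. Tnfrsf22, another decoy receptor of TRAIL, had means of 4.10 and 4.06 FPKM in pericytes and SMCs under 1 identifier and of 1.58 and 1.16 FPKM under the other, and neither was called. The shorter of the 2 gene models shares 99.9% of its exon bases with the longer, so the split of reads between them is uncertain.

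Among receptors higher in SMCs, Tnfrsf12a reached the highest mean of all 34 genes, 426 ± 97.1 FPKM (SD, n = 4) in SMCs. It encodes Fn14, the receptor of TWEAK, and is known from injured muscle and growing mesenchymal cells. Its levels were 172, 256, 96.0 and 152 FPKM in pericytes and 554, 440, 386 and 326 FPKM in SMCs. The lowest SMC library was above the highest pericyte library (log2 fold change -1.39 ± 0.30 (SE), limma q = 0.0163, and 0.0507 without SMC replicate 2, the highest of 0.00221 to 0.0507 over the 18 alternatives). A share of 8.10% of its exon bases overlaps Hcfc1r1 on the opposite strand, and whether reads were counted by strand is not stated.

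Tnfrsf11b, the gene of osteoprotegerin, a soluble decoy receptor of RANKL, had 5.51, 4.97, 1.44 and 2.09 FPKM in pericytes and 37.4, 40.7, 11.4 and 9.49 FPKM in SMCs. Replicates 1 and 2 exceeded replicates 3 and 4 in both groups, and no pericyte library reached an SMC library. The mean was 7.07 times higher in SMCs (log2 fold change -2.37 ± 0.58 (SE), limma q = 0.0244). The call was lost with all listed genes tested (limma q = 0.0569) and without pericyte replicate 3 or 4 or SMC replicate 1 or 2 (limma q = 0.0655 to 0.0709 and log2 fold change -2.23 to -2.05), the highest q values of its 18 alternatives being among these. Tnfrsf19, which encodes TROY, an orphan receptor of mesenchymal and neural progenitors, had 5.74, 2.29, 2.05 and 2.98 FPKM in pericytes and 12.7, 14.5, 8.17 and 7.99 FPKM in SMCs. SMC libraries were all higher (log2 fold change -1.51 ± 0.30 (SE), limma q = 0.0110). Tnfrsf21, the gene of the death domain receptor DR6, had 4.16, 3.18, 10.5 and 11.3 FPKM in pericytes and 12.7, 13.6, 31.3 and 23.7 FPKM in SMCs. Its groups did not overlap, but replicates 3 and 4 exceeded replicates 1 and 2 in both, and the limma q value was 0.0658 (log2 fold change -1.43 ± 0.45 (SE)). With the replicates 1 and 2 against 3 and 4 as a covariate the limma q value was 5.4e-04, and over the 18 alternatives it ranged up to 0.174. Tnfrsf21 was called in 4 of the 18. Besides the covariate, these were the filter at 1 FPKM (limma q = 0.0201), quantile scaling (limma q = 0.0368) and the replicate block (limma q = 0.00691).

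The other 4 receptors were low in both groups and were not called, apart from the alternatives given above for Tnfrsf14 and Tnfrsf8. Tnfrsf14 (HVEM), Tnfrsf8 (CD30), Tnfrsf10b (a death receptor of TRAIL) and Tnfrsf11a (RANK) had means of 0.372 to 3.44 FPKM in pericytes and 0.0783 to 3.30 FPKM in SMCs. Their log2 fold changes lay between -0.34 and 1.08 (limma q = 0.0836 to 0.606).

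Among the 13 ligands, 6 were higher in pericytes, 2 in SMCs, and 5 were not called. The median ligand had a log2 level of 1.63 in pericytes and 1.37 in SMCs. A mean of at least 10 FPKM was found for 4 ligands in pericytes and for 2 in SMCs.

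The lymphotoxin genes and Tnf lie within the same stretch of chromosome 17 (Ltb at chr17:35331384-35333265, Tnf at chr17:35336326-35338952 and Lta at chr17:35340110-35342296, NCBI Build 37), with 3060 bases between Ltb and Tnf and 1157 bases between Tnf and Lta. Ltb, which encodes the membrane anchor of the lymphotoxin heterotrimer, had 139, 269, 191 and 227 FPKM in pericytes and 6.33, 6.92, 4.76 and 5.93 FPKM in SMCs. Its log2 fold change of 4.86 ± 0.21 (SE, limma q = 1.8e-05) was the largest of the 34 genes, and the mean of 206 ± 55.1 FPKM (SD, n = 4) in pericytes was 34.5 times the SMC mean. Lta, the gene of lymphotoxin α, had 8.20, 8.01, 4.42 and 7.37 FPKM in pericytes and 0.251, 0.801 and 0.269 FPKM in SMC replicates 1, 2 and 4, and was listed at 0 in SMC replicate 3. The groups did not overlap (log2 fold change 2.59 ± 0.23 (SE), limma q = 3.2e-04). Between them, Tnf, the inflammatory cytokine that names the family, had 17.0, 20.1, 15 and 8.21 FPKM in pericytes and 18.5, 19.5, 11.2 and 10.9 FPKM in SMCs. The ranges overlapped almost fully, with a log2 fold change of -0.02 and a 95% interval from -0.74 to 0.71 (limma q = 0.982). Of these adjacent genes, both lymphotoxin genes were called and Tnf was not. The part of lymphocytes in these values was not tested.

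Further ligands known from activated T cells were called as well. Tnfsf11, the gene of RANKL, which drives osteoclast formation and is also made by T cells, had 5.14, 16.6, 13.0 and 12.8 FPKM in pericytes and 1.30, 3.29, 1.36 and 0.898 FPKM in SMCs. Pericyte replicate 1 was the lowest of its group and above all SMC libraries (log2 fold change 2.22 ± 0.38 (SE), limma q = 0.00594). Tnfsf14, which encodes LIGHT, the ligand of HVEM and of the lymphotoxin β receptor, had 2.22, 2.22, 2.09 and 1.84 FPKM in pericytes and 0.226, 0.610, 0.443 and 0.591 FPKM in SMCs. It was low, and the groups were apart (log2 fold change 1.08 ± 0.10 (SE), limma q = 4.0e-04). Tnfsf8, the gene of the CD30 ligand, had 3.43, 1.87, 3.39 and 3.06 FPKM in pericytes and 0.305, 0.753, 1.40 and 1.02 FPKM in SMCs. The groups were apart (log2 fold change 1.09 ± 0.22 (SE), limma q = 0.0117), and with a common sum the limma q value was 0.0622, the highest of its 18 alternatives. Tnfsf4, which encodes the OX40 ligand, had 2.59, 1.86, 0.446 and 3.08 FPKM in pericytes and 0.151, 0.196, 0.0295 and 0.283 FPKM in SMCs. Replicate 3 was the lowest in both groups (log2 fold change 1.27 ± 0.31 (SE), limma q = 0.0261). That call was lost with all listed genes tested (limma q = 0.0586) and without any single library other than pericyte replicate 3 (limma q = 0.0561 to 0.0823, log2 fold change 1.08 to 1.31), and over the 17 alternatives that tested it the limma q value was 0.00117 to 0.0823. On this scale, which adds 1 to the FPKM, fold changes of such low genes are understated. The means of Tnfsf4 were 2.00 and 0.165 FPKM, a ratio of 12.1.

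Tnfsf9, which encodes the ligand of CD137, was the most abundant ligand in SMCs. It had 31.3, 45.4, 21.5 and 24.7 FPKM in pericytes and 176, 123, 115 and 116 FPKM in SMCs. Replicate 1 was highest among SMC libraries, and the lowest SMC library was above every pericyte library (log2 fold change -2.10 ± 0.25 (SE), limma q = 0.00112). Of the genes past the fold threshold in SMCs it is the one just inside, and Tnfrsf19 at -1.51 is the next below it. Tnfsf10, the gene of the death ligand TRAIL, had 1.77, 1.15, 1.83 and 1.74 FPKM in pericytes and 1.87, 3.68, 4.81 and 4.14 FPKM in SMCs. SMC replicate 1 was just above the highest pericyte library (log2 fold change -0.78 ± 0.22 (SE), limma q = 0.0459). The call was lost in 14 of 18 alternatives (limma q = 0.00473 to 0.116 over the 18), among them the removal of any single library but SMC replicate 1, where the log2 fold change was -0.82 to -0.66.

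The genes of BAFF and APRIL, ligands of the products of Tnfrsf13b, Tnfrsf13c and Tnfrsf17, were not called. Tnfsf13b, the BAFF gene, was at 0.276 to 1.89 FPKM in pericytes and at 1.41 to 6.36 FPKM in SMCs (log2 fold change -1.35 ± 0.41 (SE), limma q = 0.0574). SMC replicate 3 was the only SMC library within the pericyte range, and without it the limma q value was 0.0234, within 0.0181 to 0.156 over the 18 alternatives. Tnfsf13, the APRIL gene, was at 0.547 to 1.86 FPKM in pericytes and at 2.26 to 8.73 FPKM in SMCs (log2 fold change -1.22 ± 0.39 (SE), limma q = 0.0661). It was called in 3 of 18 alternatives, with a pseudocount of 0.1 (limma q = 0.0455), the filter at 1 FPKM (limma q = 0.0230) and a common sum (limma q = 0.0337), within 0.0230 to 0.165 over the 18. The groups did not overlap, but 60.0% of its exon bases are shared with BC096441 on the same strand, so its reads cannot be assigned with certainty. Tnfsf15, which encodes the DR3 ligand, and Tnfsf18, the GITR ligand gene, averaged under 1 FPKM in both groups, with log2 fold changes of -0.35 and 0.13 (limma q = 0.234 and 0.664).

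**Figure D2:**
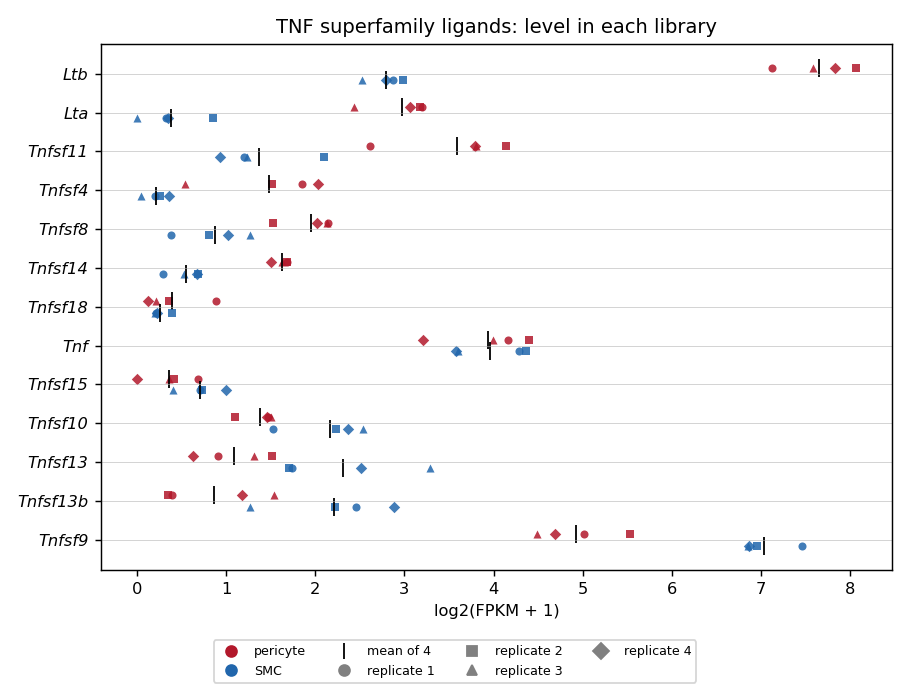
Level of each of the 13 ligand genes (rows) in log2(FPKM + 1) (x axis) in the 4 pericyte (red) and 4 SMC (blue) libraries, with a marker shape for each replicate and a bar at the mean of 4. Ltb in pericytes and Tnfsf9 in SMCs lie farthest to the right, and the red and blue Tnf points are interleaved.

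Other members lie close together too. Tnfrsf4 (chr4:155387952-155390721) and Tnfrsf18 (chr4:155400273-155403004) are 9551 bases apart on the same strand, and both were higher in pericytes. Tnfrsf1b and Tnfrsf8 are 20266 bases apart, with Tnfrsf8 under 1 FPKM in every library. Tnfsf9 (chr17:57244808-57247180) and Tnfsf14 (chr17:57328915-57333612) are 81734 bases apart, and the former was higher in SMCs and the latter in pericytes. Tnfsf4 and Tnfsf18 on chromosome 1 are 76448 bases apart, and Tnfsf18 was not called. Neighboring members thus included a pair called in the same direction and a pair called in opposite directions.

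Libraries of the same group also differed among themselves. In 11 of the 34 genes, replicates 3 and 4 were both on one side of replicates 1 and 2 in pericytes and in SMCs alike. They were above in 4 genes, all receptors (Tnfrsf1a, Tnfrsf1b, Tnfrsf11a and Tnfrsf21), which compares with 8.46% of all genes. They were below in 7 genes (Tnfrsf13b, Tnfrsf13c, Tnfrsf14, Tnfrsf12a, Tnfrsf11b, Tnf and Tnfsf9), which compares with 12.9% of all genes. The labels name no batch that parts these replicates. With this split as a covariate, 15 family members were higher in pericytes and 8 in SMCs, the SMC count having gained Tnfrsf1a and Tnfrsf21 (limma q = 0.00812 and 5.4e-04), with the same fold changes. Tnfrsf14 was the gene gained in pericytes (limma q = 0.0385). Calls over all genes rose as well, from 2917 to 3794 for pericytes and from 3060 to 3929 for SMCs.

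Ligands and receptors known to bind each other were then set side by side, with partners that carry other symbols included (24 pairs). Ligand and receptor were both higher in pericytes in 2 pairs, which were Tnfsf4 with Tnfrsf4 and Lta with Tnfrsf1b. Without pericyte replicate 1 neither pair kept both calls, since those of Tnfsf4 (limma q = 0.0823) and Tnfrsf1b (limma q = 0.0832) were lost. The same held with all listed genes tested and without pericyte replicate 4 or SMC replicate 1, 2 or 3. Leaving out any other library lost 1 of these calls. In 3 pairs the ligand was higher in pericytes and the receptor in SMCs. These were Tnfsf11 with its decoy receptor Tnfrsf11b, and Ltb and Tnfsf14 with Ltbr, the lymphotoxin β receptor of stromal cells. Ltbr was at 5.78, 7.09, 5.57 and 10.6 FPKM in pericytes and at 18.3, 18.3, 40.0 and 33.2 FPKM in SMCs (log2 fold change -1.74 ± 0.31 (SE), limma q = 0.00679). All SMC libraries were thus higher in the receptor, and all pericyte libraries were higher in both of its ligands. Of the markers, 7 of 8 of T cells and 6 of 6 of B cells were likewise higher in pericytes. Of 7 fibroblast markers, 6 were higher in SMCs and 1 in pericytes. The part of those cells in the pairs was not tested. In 1 pair, Tnfsf9 with Tnfrsf9, the ligand was higher in SMCs and the receptor in pericytes. In 7 pairs the receptor was higher in pericytes and the ligand was not called, among them Tnfsf18 with Tnfrsf18 and Tnfsf15 with Tnfrsf25, in which the ligand averaged under 1 FPKM in both groups. In the other pairs, 1 was higher in SMCs on both sides (Eda with Eda2r), 5 had a ligand higher in pericytes and a receptor that was not called, 2 had a ligand higher in SMCs and a receptor that was not called, and 3 had neither called. Several pairs share a gene, so they are not independent. The 24 pairs are also not complete. Tnfsf10 was paired with Tnfrsf10b and not with its decoy receptors Tnfrsf22 and Tnfrsf23. Of these, Tnfrsf23 was higher in SMCs, as was Tnfsf10, whose call was lost in 14 of 18 alternatives. Tnfsf12, the ligand gene of Fn14, is not among the 34 genes that the symbols gave and was not analysed here.

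**Figure D3:**
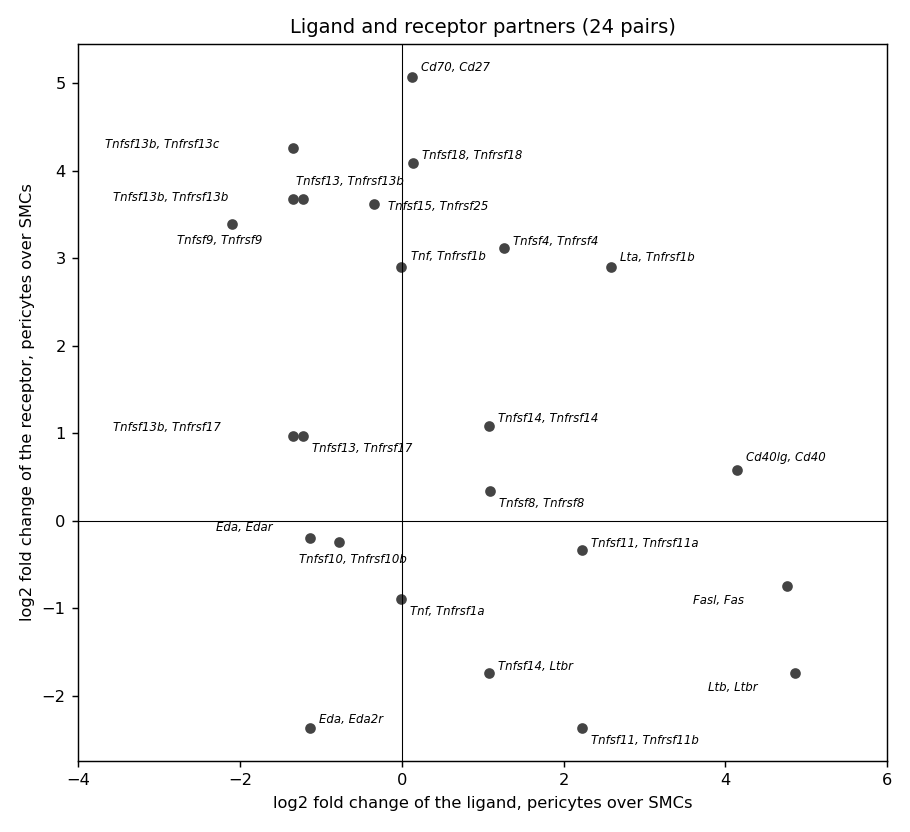
Log2 fold change of pericytes over SMCs of the ligand (x axis) and of its receptor (y axis) for 24 ligand and receptor pairs, each point being 1 pair. Ltb with Ltbr lies at the lower right (4.86 and -1.74) and Tnfsf9 with Tnfrsf9 at the upper left (-2.10 and 3.39).

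Members of the superfamily that carry other symbols were counted next. Of 8 such receptors, 2 were higher in pericytes and 3 in SMCs, beside 10.6% and 11.2% of all genes called, or 22.1% and 22.8% among genes at 1 FPKM or more. Cd27, a costimulatory receptor of T and B cells, had 109, 148, 125 and 83.7 FPKM in pericytes and 3.24, 2.40, 1.66 and 2.57 FPKM in SMCs (log2 fold change 5.07 ± 0.21 (SE), limma q = 1.4e-05). Eda2r, a receptor of ectodysplasin, had 2.92, 2.79, 0.442 and 0.973 FPKM in pericytes and 11.8, 14.3, 11.9 and 10.9 FPKM in SMCs (log2 fold change -2.37 ± 0.34 (SE), limma q = 0.00246). In neither gene did the groups overlap. Relt, a receptor of lymphoid tissue, was higher in pericytes (log2 fold change 0.78, limma q = 0.0264). That call was lost without any 1 of the pericyte libraries, SMC replicate 1 or SMC replicate 3 (limma q = 0.0534 to 0.0760), and over the 18 alternatives the limma q value was 0.00470 to 0.182. Ngfr, the low-affinity neurotrophin receptor, was higher in SMCs at 1.56 ± 0.549 against 0.393 ± 0.0784 FPKM (SD, n = 4, limma q = 0.00826). Of 4 ligands, Fasl and Cd40lg, both made by activated T cells, were higher in pericytes (log2 fold change 4.76 and 4.15, limma q = 8.5e-06 and 3.0e-05) and Eda was higher in SMCs (log2 fold change -1.14, limma q = 0.00394). The part of T cells in the Fasl and Cd40lg values was not tested.

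The counts for the lists of pathway genes stand beside the same shares, 10.6% called for pericytes and 11.2% for SMCs over all genes tested. Among genes at 1 FPKM or more, fitted on their own, the shares were 22.1% and 22.8%. Downstream of the receptors, 7 of 16 TRAF and death domain adaptor genes had higher levels in pericytes and 2 in SMCs, with a median log2 fold change of 0.60. Traf1, an adaptor induced by NF-κB in lymphocytes, had 63.3, 55.7, 83.9 and 103 FPKM in pericytes and 7.56, 11.4, 6.33 and 15.5 FPKM in SMCs (log2 fold change 2.82 ± 0.30 (SE), limma q = 7.1e-04). Traf4 and Traf3 had log2 fold changes of 2.81 and 1.60 (limma q = 0.00821 and 0.0289), the call of Traf4 was lost in 1 of 18 alternatives (limma q = 0.00105 to 0.0502), and that of Traf3 was lost when any library but pericyte replicate 2 was left out (limma q = 0.0654 to 0.0789, and 0.00131 to 0.0875 over the 18 alternatives). The pair that carries out necroptosis was split, with the kinase Ripk3 higher in pericytes (log2 fold change 1.20, limma q = 0.00207) and its substrate Mlkl higher in SMCs (log2 fold change -1.18, limma q = 0.00153). Of 23 NF-κB kinases, subunits and inhibitors, 7 were higher in pericytes and 0 in SMCs by limma (12 and 1 at an unadjusted p below 0.05), with a median log2 fold change of 0.94. The share of this list called for pericytes, 7 of 23, lies nearer the 22.1% of expressed genes than the 10.6% of all genes tested. Its 0 of 23 called for SMCs lies below both shares for SMCs. The share of the adaptors called for SMCs, 2 of 16, is near the 11.2% of all genes tested. Their 7 of 16 called for pericytes lies above both shares for pericytes. Of the lymphocyte markers, 7 of 8 of T cells, 6 of 6 of B cells and 4 of 4 of NK cells were likewise higher in pericytes, and their part in both lists was not tested. Rel, the lymphoid NF-κB subunit, had 67.0, 41.4, 78.0 and 78.6 FPKM in pericytes and 6.66, 11.6, 12.5 and 20.1 FPKM in SMCs (log2 fold change 2.34 ± 0.34 (SE), limma q = 0.00264). Tnfaip3, the gene of A20, which restrains TNF receptor signaling, averaged 226 ± 109 FPKM in pericytes and 42.3 ± 19.5 FPKM in SMCs (SD, n = 4; log2 fold change 2.35, limma q = 0.0129). Ikbkb, Nfkbib and Cyld followed with log2 fold changes of 1.33, 1.26 and 1.48, of which that of Cyld was not called with a common sum (limma q = 0.158) or without any single library but pericyte replicate 2 (limma q = 0.0693 to 0.105, and 0.00170 to 0.158 over the 18 alternatives).

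The list of 15 TNF-inducible genes went the other way. Of these 15, 10 were higher in SMCs and 1 in pericytes, with a median log2 fold change of -2.09. The list is not complete. Traf1, given above as an adaptor induced by NF-κB, stood in another list and was higher in pericytes. Sele, which encodes the leukocyte adhesion molecule E-selectin of endothelium, had 1.10, 0.122, 0.0599 and 2.37 FPKM in pericytes and 13.3, 22.3, 69.8 and 98.6 FPKM in SMCs (log2 fold change -4.52 ± 0.70 (SE), limma q = 0.00366). The chemokine genes Ccl2 and Cxcl1 averaged 421 ± 61.4 and 991 ± 174 FPKM in SMCs, and 55.6 ± 14.4 and 152 ± 51.7 FPKM in pericytes (SD, n = 4; limma q = 7.6e-05 and 4.8e-04). Il6 and Vcam1, a cytokine and an adhesion molecule, had log2 fold changes of -2.87 and -2.83 (limma q = 0.00321 and 0.00362). The 1 gene of the TNF-inducible list higher in pericytes was Csf2, a cytokine of activated lymphocytes (log2 fold change 1.54, limma q = 0.00968). These genes also respond to other signals, 6 of 7 fibroblast markers (median log2 fold change of the list -3.51), 6 of 8 endothelial markers (-2.65) and 4 of 6 macrophage markers (-1.52) were likewise higher in SMCs, and the part of those cells was not tested. Among 6 genes of ligand and receptor shedding, whose counts lie near the shares of expressed genes called, Rhbdf1 and Timp3 were higher in SMCs (log2 fold change -1.89 and -2.17) and Furin, a protease that processes precursors, was higher in pericytes (log2 fold change 0.94, limma q = 0.0131, but 0.0726 with a common sum and 0.0605 with a pseudocount of 0.01, from a range of 0.00258 to 0.0726). Timp3, the inhibitor of the TNF-shedding protease, had a limma q value of 0.0439, which was 0.0019 to 0.119 over the 18 alternatives. With single libraries left out, the call of Timp3 held only without pericyte replicate 4.

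**Figure D4:**
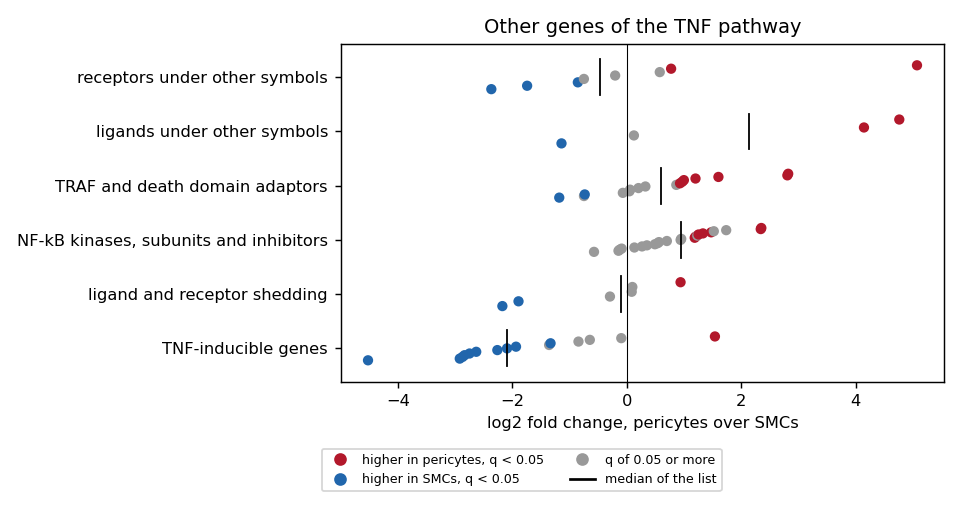
Log2 fold change of pericytes over SMCs (x axis) of each gene in 6 lists of the TNF pathway (rows), each dot being 1 gene, with a bar at the median of the list. The median is 0.94 for NF-κB genes and -2.09 for TNF-inducible genes.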

How the data were processed

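Pericytes and SMCs were sorted from skeletal muscle and sequenced in 4 libraries each. The authors amplified RNA with a SMART-Seq kit, aligned reads with TopHat and Bowtie2 to NCBI Build 37 of the mouse genome, using an Ensembl annotation, and deposited FPKM per gene and library, with no log transform or filter. FPKM correct for length and for mapped reads, so a few abundant genes lower all others, and the reads behind a value are not known. The program that computed FPKM and the use of strand are not given in the sources used here.

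Log2(FPKM + 1) was compared between groups with limma 3.58.1 (lmFit, eBayes) in R 4.3.3, with Benjamini-Hochberg adjustment (q value) over 27414 genes above 0 FPKM in at least 1 library. No covariate was used. The study also used limma, and its design matrix is not given in the sources used here. Calls required q < 0.05, and the fold threshold was a log2 fold change of 2. The study calls the libraries biological replicates, but which animals went into each is not given in the sources used here, so p-values measure the spread between these libraries. In simulated data of this size for this comparison (27414 genes), 92 of 100 genes changed by 4 and 70 of 100 changed by 2.5 log2 units were called, with 6 of 27214 unchanged genes. The simulated libraries were independent with normal errors, and the 200 changed genes had a mean log2 level above 1. These rates therefore do not cover members at low levels or differences shared between replicates.

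The family, the pathway and marker lists and the ligand and receptor pairs were chosen with earlier results of these data known. Values in every library were given for family members with q < 0.05 or a mean of at least 10 FPKM in a group, and from each pathway list up to 5 called genes of largest fold change were named. Foxp3, Pdgfrb, Tagln, Rgs5, Vtn, Ptprc, Csf2 and some members without a call were named beyond this rule, and a marker gene of the lists is not reported here. Alternatives were pseudocounts of 0.1 and 0.01, a filter at 1 FPKM in 4 libraries, no filter, 3 scalings, a replicate block, the split of replicates as a covariate, an intensity trend, and each library left out. Gene positions came from GENCODE on NCBI Build 37, and promoter sequences from RefSeq on GRCm38.p6. Tables and figures were made with Python 3.11.15, pandas 2.3.3, numpy 2.4.6 and matplotlib 3.10.9.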

Additional observations from a re-analysis of the deposited data

Results flagged for a closer look

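Within groups of 4 libraries, 6 of 120 combinations of a gene and a group held a library that was far from the other 3 on the log2 scale, by Dixon's criterion at 95%. Chance gives about 1 in 20. Tnfrsf25 was high in pericyte replicate 2, at 44.1 FPKM against 18 to 19.9 FPKM in the other pericyte libraries. Tnfsf10 was low in the same library, at 1.15 FPKM against 1.74 to 1.83 FPKM. Tnfsf9 was high in SMC replicate 1, at 176 FPKM against 115 to 123 FPKM. Tnfsf18 was higher in SMC replicate 2, at 0.312 FPKM against 0.153 to 0.167 FPKM, all of them low. Of the other pathway genes, Ikbkb was high in SMC replicate 4, at 40.6 FPKM against 23.4 to 25.1 FPKM, and Cyld was low in SMC replicate 1, at 5.85 FPKM against 9.44 to 10.4 FPKM. Pericyte replicate 2 is also the library with the highest summed FPKM, and its part in these values was not tested.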

How the results depend on the processing

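Of the 20 family members called, 14 kept the call in each of the 18 alternatives and 6 (Tnfrsf1b, Tnfrsf11b, Tnfrsf12a, Tnfsf4, Tnfsf8 and Tnfsf10) lost it in at least 1, while 7 others gained a call in at least 1; no called member changed direction. The count of members higher in pericytes was 12 to 15 over all settings (12 to 14 with single libraries left out), and that of members higher in SMCs was 3 to 9 (3 to 6 with single libraries left out), with 3 without SMC replicate 2. The 11 members past the fold threshold in pericytes were 9 to 13 over all settings. The 2 past it in SMCs became 3 with a pseudocount of 0.1, 1 with no filter and 0 to 2 with single libraries left out (0 without pericyte replicate 3 or SMC replicate 1, 1 without pericyte replicate 4 or SMC replicate 2). Over all genes, those past the fold threshold numbered 888 in pericytes and 728 in SMCs, against 1380 and 1520 with a pseudocount of 0.01, and 1421 in SMCs with 0.1. A pseudocount of 0.01 moved the median of all genes to 0.12. With single libraries left out, 3 uncalled values changed sign, with ranges of -0.28 to 0.13 for the longer Tnfrsf22 model, -0.030 to 0.23 for Tnfsf18 and -0.17 to 0.23 for Tnf; the cause was not tested. Same-numbered libraries were not treated as pairs, since no source ties them and 1 of the 4 pairs correlated at only 0.0794, but the other pairs reached up to 0.474 and 5 of 8 libraries correlated best with their own number, a hint of pairing from the data. The replicate block gave 14 members higher in pericytes and 7 in SMCs (11 and 2 past the fold threshold), gained Tnfrsf1a (limma q = 0.0271) and Tnfrsf21 (limma q = 0.00691) and lost Tnfsf10 (limma q = 0.0732), Traf3, Traf4 (limma q = 0.0502) and Cyld, and over all genes it gave 2978 and 3175 (881 and 739 past the fold threshold). Without the reads behind FPKM, the counting error of values, which is largest for low ones, cannot be estimated.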
